A study of Mus musculus with 9 samples.

Results

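Pappalysins and stanniocalcins are secreted proteins that act against each other on insulin-like growth factor (IGF) supply. The mouse family read here has 4 genes, Pappa, Pappa2, Stc1 and Stc2, and was chosen by name as a whole, with the group differences in these libraries already known. All 4 were among the 21958 genes of the expression table, and all 4 were among the 13013 genes with enough reads to be tested. Because of that choice their fold changes, and whether each passed the threshold used for all genes, are given as descriptions, and no p-value is printed for them.

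RNA was sequenced from cultured periosteal progenitors of the mouse mandible, cells from the membrane that covers the jaw bone, in 3 groups of 3 libraries. Mutant day 3 cells were CTSK-iCre;Plagl1 fl/fl and spent 3 days in osteogenic medium that held dexamethasone at 100 nM, ascorbic acid at 50 ug/ml and b-glycerophosphate at 5 mM. Control day 3 cells were Plagl1 fl/fl and had the same 3 days in that medium, and control day 0 cells were Plagl1 fl/fl without it. Control day 3 relative to control day 0 is called induction hereafter, and mutant differences are relative to control day 3 unless another group is named. All 3 groups thus carried floxed Plagl1, an imprinted gene for a zinc-finger transcription factor, and the Cre recombinase was present in the mutant alone. The Ctsk promoter that drives it works in osteoclasts and in stem cells of the periosteum. The labels give neither the age nor the sex of the animals. They also do not say whether replicate libraries came from separate animals or cultures, so errors and p-values measure the spread between libraries, which may be technical. Time and medium changed together between day 0 and day 3 and cannot be told apart.

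Pappalysins are zinc metalloproteinases of the extracellular space. PAPP-A, the product of Pappa, cuts the IGF binding proteins IGFBP-4, IGFBP-2 and IGFBP-5, and PAPP-A2, the product of Pappa2, cuts IGFBP-3 and IGFBP-5. Cutting releases IGF near its receptor IGF1R. The stanniocalcins STC1 and STC2 bind both enzymes and inhibit them, and mice without Pappa or Pappa2 are small. Stc2 is also known as a target of the transcription factor ATF4 in stress of the endoplasmic reticulum, and Stc1 as a gene induced by hypoxia.

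The enzymes share the elongated zinc-binding motif HEXXHXXGXXH in the catalytic site, and the stretch that encodes it is shown because it carries the activity that separates these genes from their inhibitors. The 33 bases come from the transcripts Pappa-201 (chromosome 4, transcript bases 2043 to 2075) and Pappa2-202 (chromosome 1, transcript bases 3129 to 3161) of GENCODE M21 on build GRCm38, and capitals mark the 8 bases that differ between them.
Pappa: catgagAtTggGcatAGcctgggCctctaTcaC
Pappa2: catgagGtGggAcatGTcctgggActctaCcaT

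RefSeq promoter sequences on GRCm38.p6, 300 bases around the annotated start, were found for 2 of the 4 genes, Pappa2 and Stc2. They are shown because they put a protease and an inhibitor that were called in opposite directions with induction side by side, and capitals mark CG dinucleotides.
Pappa2, chr1:158958126-158958425, minus strand: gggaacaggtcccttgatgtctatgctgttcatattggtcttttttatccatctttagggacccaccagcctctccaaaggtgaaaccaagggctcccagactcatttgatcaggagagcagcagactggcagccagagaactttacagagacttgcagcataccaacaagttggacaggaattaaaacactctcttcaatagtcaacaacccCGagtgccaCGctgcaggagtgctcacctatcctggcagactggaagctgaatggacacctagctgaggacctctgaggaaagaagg
Stc2, chr11:31370012-31370311, minus strand: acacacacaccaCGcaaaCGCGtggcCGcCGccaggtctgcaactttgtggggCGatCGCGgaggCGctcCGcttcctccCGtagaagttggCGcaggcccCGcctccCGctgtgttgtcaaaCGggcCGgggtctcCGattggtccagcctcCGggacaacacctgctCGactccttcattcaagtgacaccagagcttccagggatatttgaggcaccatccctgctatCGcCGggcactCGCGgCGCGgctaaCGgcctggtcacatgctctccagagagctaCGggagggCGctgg
The Pappa2 window held 2 CG dinucleotides at 49.7% G and C, and 85.9% of 32851 promoters of this length held at least as many. The Stc2 window held 28 at 64.7% G and C, a number reached by 14.2% of promoters, against a median of 7 over all of them. The RefSeq start of Stc2 lay 13 bases from the GENCODE M21 gene start. For Pappa2 it lay 22315 bases from the GENCODE gene start and 192 bases from the nearest annotated transcript start, so the window marks 1 of several annotated starts. Both strands of both windows were searched for 3 motifs, the hypoxia response core ACGTG (in 19.6% of promoters), the ATF4 composite element TGATGNAA (in 4.0%) and the glucocorticoid response core AGAACA (in 19.0%), none of which contains another. There were 0 matches in either window.

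Libraries held 16204327 to 19859744 counts, and 14847 to 15123 genes had reads. Plagl1, the targeted gene, averaged 25.1 ± 1.1 CPM in mutant day 3, 44.9 ± 1.0 CPM in control day 3 and 36.6 ± 1.6 CPM in control day 0 (CPM, counts scaled to library size with TMM factors, SD, n = 3 each). It was 0.559-fold in the mutant relative to control day 3, and the labels do not say which exons are floxed. Y-linked transcripts also differed between those groups. Kdm5d was 0.323-fold, Uty 0.329-fold, Eif2s3y 0.374-fold and Ddx3y 0.402-fold in the mutant. What moves with these transcripts and what moves with genotype cannot be told apart in any mutant difference given here.

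Pappa, the gene of the IGFBP-4 protease (ENSMUSG00000028370, GRCm39 chromosome 4, 65042411 to 65275746, plus strand), was lower in the mutant. Its levels were 41.3, 38.4 and 53.6 CPM in mutant day 3, 56.6, 66.4 and 59.5 CPM in control day 3, and 67.6, 70.7 and 60.3 CPM in control day 0. Every mutant library lay below every control library, with mutant replicate 3 nearest to them, and the control groups overlapped. The group means were 44.4 ± 8.1 CPM in mutant day 3, 60.8 ± 5.0 CPM in control day 3 and 66.2 ± 5.3 CPM in control day 0 (SD, n = 3 each). The log2 fold change was -0.45 ± 0.10 (SE) in mutant day 3 relative to control day 3, a level 0.730 times that of the control, and it was called lower. Called here means a Benjamini-Hochberg adjusted p under 0.05 over all tested genes in edgeR's quasi-likelihood test. Between control day 3 and control day 0 the log2 fold change was -0.12 ± 0.09 and was not called, but under scaling by total counts alone it was called, at -0.24.

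Pappa2, the gene of the IGFBP-3 and IGFBP-5 protease (ENSMUSG00000073530, GRCm39 chromosome 1, 158539297 to 158808060, minus strand), was the protease that differed more between the day 3 groups. It stood at 65.0, 59.1 and 66.2 CPM in mutant day 3, at 126, 144 and 139 CPM in control day 3, and at 68.6, 67.7 and 68.2 CPM in control day 0. Control day 3 was high, the mutant and control day 0 were low and close together, and no pair of groups overlapped. Relative to control day 3 the mutant had a log2 fold change of -1.10 ± 0.06, a level 0.465 times that of the control, called lower. With induction Pappa2 rose by 1.00 ± 0.06 on the log2 scale, called higher. Mutant day 3 relative to control day 0 gave -0.10 ± 0.06, which was not called, but under scaling by total counts alone it was called, at -0.25. Over the 3 libraries of a group the coefficient of variation of Pappa2 was 6.02% in mutant day 3, 7.06% in control day 3 and 0.624% in control day 0.

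In bulk RNA such as this, fewer cells of a type and less RNA per cell cannot be told apart.

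**Figure D1:**
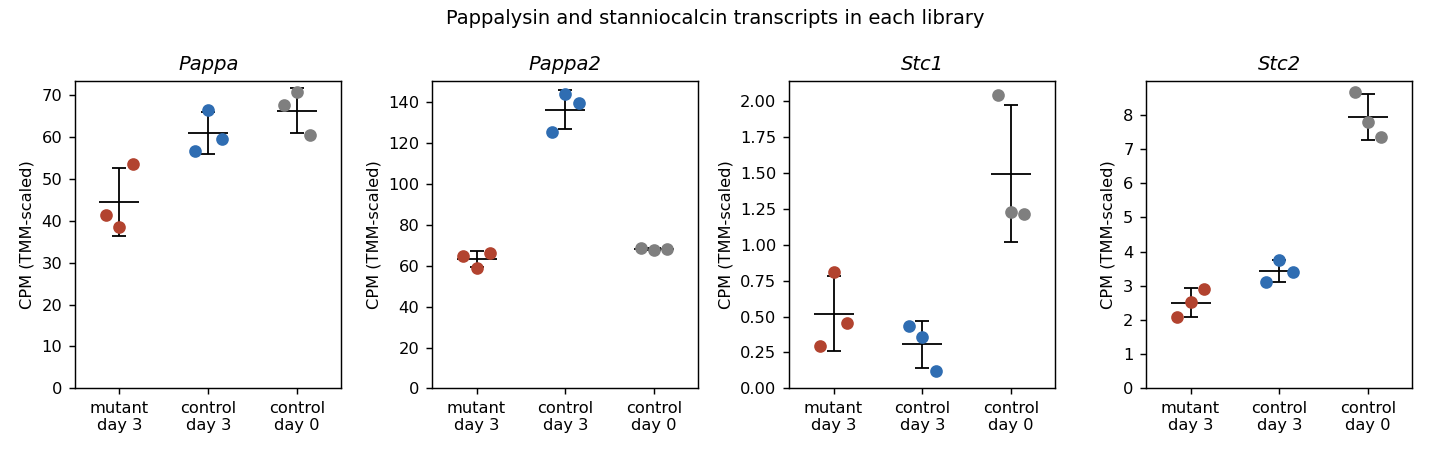
Level of Pappa, Pappa2, Stc1 and Stc2 in each library, in CPM scaled by TMM, in mutant day 3, control day 3 and control day 0; points are libraries, and bars are the mean and SD of 3 libraries. Pappa2 stood at 126 to 144 CPM in control day 3 and below 70 CPM in all other libraries, and Stc2 stood highest in control day 0.

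Stc2, whose product forms a covalent inhibitory complex with PAPP-A (ENSMUSG00000020303, GRCm39 chromosome 11, 31307307 to 31320074, minus strand), was low in every group and highest before induction. It had 35, 44 and 51 reads in mutant day 3, 57, 73 and 55 reads in control day 3, and 178, 140 and 127 reads in control day 0. In CPM these were 2.08, 2.54 and 2.92 in mutant day 3, 3.10, 3.76 and 3.42 in control day 3, and 8.66, 7.80 and 7.36 in control day 0. The 3 groups did not overlap, and day 0 stood well apart from both day 3 groups. Control day 3 relative to control day 0 gave a log2 fold change of -1.21 ± 0.16, 0.432 times the day 0 level, called lower. Mutant day 3 relative to control day 3 gave -0.45 ± 0.19, 0.733 times the control level, which was not called.

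Stc1, the gene of the other inhibitor (ENSMUSG00000014813, GRCm39 chromosome 14, 69266687 to 69279253, plus strand), was near the limit of detection after induction. It had 5, 14 and 8 reads in mutant day 3, 8, 7 and 2 reads in control day 3, and 42, 22 and 21 reads in control day 0. The summed reads were 27 in mutant day 3 (95% exact Poisson interval 17.8 to 39.3), 17 in control day 3 (9.90 to 27.2) and 85 in control day 0 (67.9 to 105), and these intervals cover counting error only. The day 3 groups overlapped each other, and neither overlapped day 0. Stc1 passed the filter on low counts only through control day 0, where it was high. Its differences from that group are therefore descriptions and not tests. The log2 fold change was -2.24 ± 0.43 in control day 3 relative to control day 0, called lower. It was 0.72 ± 0.54 in mutant day 3 relative to control day 3, not called.

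Between mutant day 3 and control day 3, 2 of the 4 genes were called, both proteases and both lower, and 0 were called higher. Of all tested genes 17.7% were called, 7.95% higher and 9.74% lower. Between control day 3 and control day 0, 3 of the 4 were called, Pappa2 higher and both stanniocalcins lower. Of all tested genes 65.5% were called there, 33.1% higher and 32.4% lower. Under scaling by total counts alone that split was 3418 higher and 5403 lower, against 4304 higher and 4218 lower with TMM. Between mutant day 3 and control day 0, 3 of the 4 were called, all lower, where 68.3% of tested genes were called. The log2 fold changes there were -0.58 ± 0.09 for Pappa, -1.52 ± 0.39 for Stc1 and -1.66 ± 0.17 for Stc2. For this last comparison total counts alone gave 3425 higher and 5722 lower, against 4382 higher and 4512 lower with TMM. Stc1 counts in the last 2 comparisons although it passed the filter only through control day 0, where it was high. The comparisons share libraries with each other, and since the genes were chosen with these results known, nothing is read from the counts of calls.

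**Figure D2:**
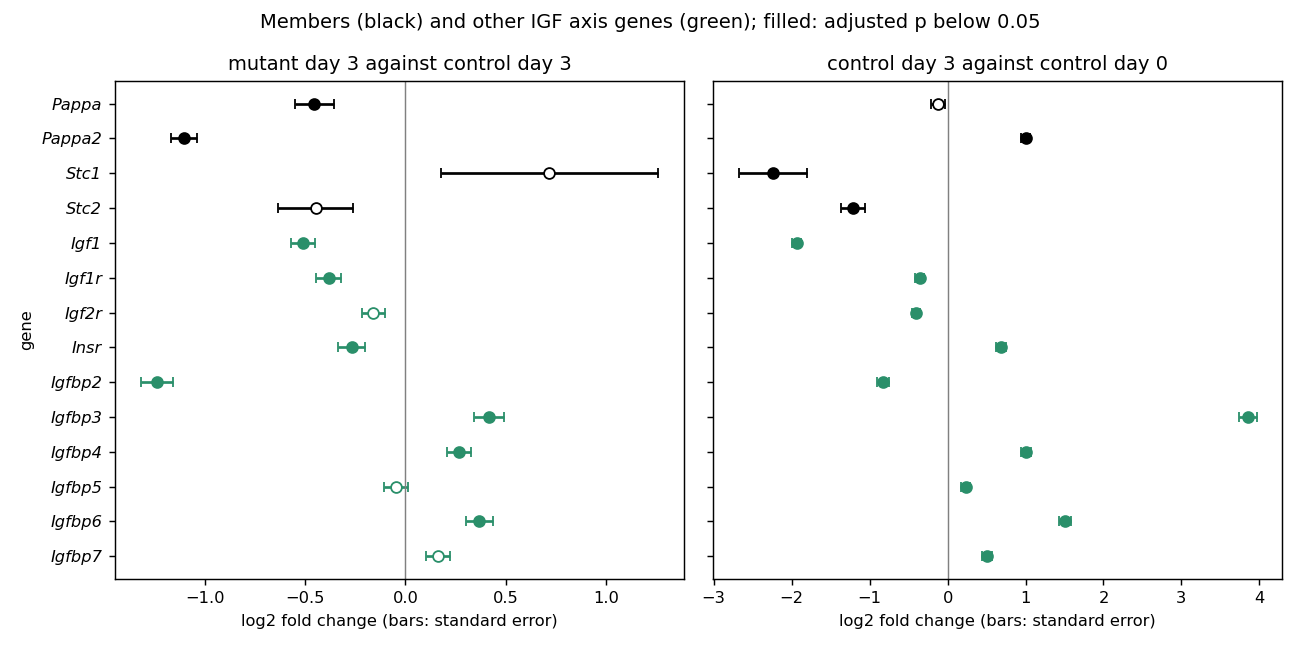
Log2 fold changes with standard errors of the 4 genes (black) and of other IGF axis genes (green), in mutant day 3 against control day 3 (left) and in control day 3 against control day 0 (right); filled points were called at an adjusted p under 0.05. Pappa2 stands at -1.10 on the left and 1.00 on the right, and the widest error is that of Stc1.

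Compared per length, the proteases were far more abundant as transcripts than their inhibitors in every group. On the FPKM scale (counts scaled by gene length and by the library's total) Pappa averaged 3.88 in mutant day 3, 5.39 in control day 3 and 6.38 in control day 0. Pappa2 averaged 5.93 FPKM in mutant day 3, 12.9 in control day 3 and 7.04 in control day 0. Stc2 averaged 0.467 FPKM in mutant day 3, 0.647 in control day 3 and 1.63 in control day 0, and Stc1 averaged 0.119 FPKM in mutant day 3, 0.0713 in control day 3 and 0.379 in control day 0. The order Pappa2, Pappa, Stc2, Stc1 held in the group means of all 3 groups. By mean FPKM, Pappa2 exceeded 54.0% of tested genes in mutant day 3, 73.6% in control day 3 and 56.1% in control day 0. Stc2 exceeded 11.2% in mutant day 3, 13.2% in control day 3 and 23.9% in control day 0. Stc1 exceeded 3.17% in mutant day 3, 1.13% in control day 3 and 9.63% in control day 0.

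Ratios taken within a library do not depend on scaling between libraries. Reads per kilobase of Pappa2 over Pappa were 1.69, 1.65 and 1.32 in mutant day 3, 2.38, 2.32 and 2.51 in control day 3, and 1.09, 1.03 and 1.21 in control day 0. The 3 groups did not overlap, control day 3 was highest, and the mutant lay between the controls. The means were 1.55 ± 0.20 in mutant day 3, 2.40 ± 0.096 in control day 3 and 1.11 ± 0.094 in control day 0 (SD, n = 3 each). Per length, Pappa2 was thus the more abundant protease transcript in all 9 libraries. Without length scaling the mean ratio in control day 0 was 1.03, and Pappa2 did not exceed Pappa in every library of that group. The ratio of Pappa2 to Pappa was chosen after its values were seen.

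The summed stanniocalcins over the summed pappalysins, again in reads per kilobase, gave 0.0469, 0.0741 and 0.0596 in mutant day 3, 0.0406, 0.0406 and 0.0364 in control day 3, and 0.169, 0.138 and 0.142 in control day 0. No pair of groups overlapped, and day 0 was highest. Means were 0.0602 ± 0.014 in mutant day 3, 0.0392 ± 0.0024 in control day 3 and 0.15 ± 0.017 in control day 0 (SD, n = 3 each). Stc2 exceeded Stc1 in every library, by 2.55 to 5.68 times in mutant day 3, 5.78 to 22.3 times in control day 3 and 3.44 to 5.16 times in control day 0. The value of 22.3 rests on 2 reads of Stc1. These are transcript ratios, and protein or protease activity was not measured.

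**Figure D3:**
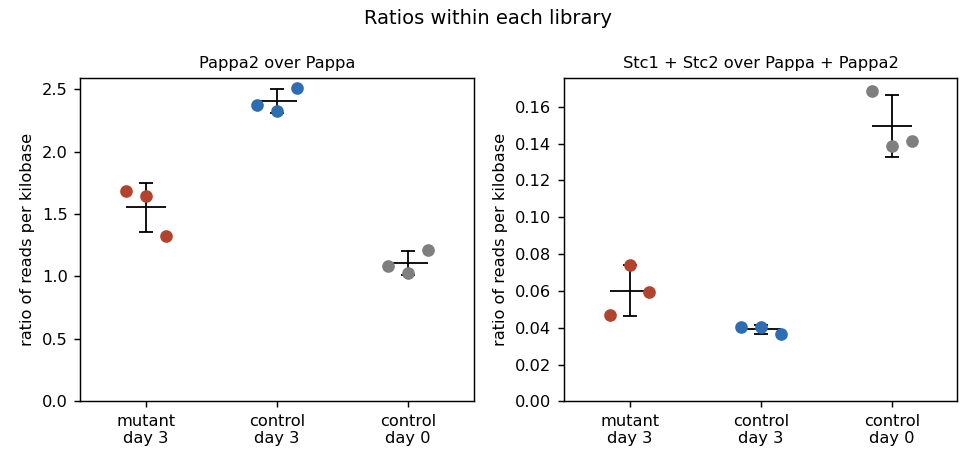
Ratio of reads per kilobase within each library, for Pappa2 over Pappa (left) and for Stc1 plus Stc2 over Pappa plus Pappa2 (right); points are libraries, and bars are the mean and SD of 3 libraries in mutant day 3, control day 3 and control day 0. Control day 3 is highest on the left at 2.32 to 2.51 and lowest on the right at 0.0364 to 0.0406.

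The other IGF axis genes and all lists below were also chosen with earlier results of these data known. Their adjusted p-values are therefore descriptions too and not independent tests. Genes named from the lists beyond the IGF axis and its partners were picked by smallest p. The genes for the substrates moved in different directions. Igfbp4, the main PAPP-A substrate, had 822, 916 and 757 CPM in mutant day 3, 710, 676 and 688 CPM in control day 3, and 351, 334 and 348 CPM in control day 0. The groups did not overlap. It rose by 0.27 ± 0.06 on the log2 scale in the mutant relative to control day 3 (edgeR adjusted p = 0.00259) and was 2.01-fold higher in control day 3 than in control day 0 (adjusted p = 1.5e-12). Igfbp3, a PAPP-A2 substrate and the main IGF carrier of blood, had 47.0, 45.9 and 46.4 CPM in mutant day 3, 33.8, 36.8 and 33.6 CPM in control day 3, and 2.77, 2.51 and 1.85 CPM in control day 0. It was higher in the mutant by 0.42 ± 0.07 on the log2 scale (edgeR adjusted p = 0.000327) and 14.4-fold higher in control day 3 than in control day 0 (adjusted p = 4.02e-18). Relative to control day 3, the mutant libraries thus had less Pappa and Pappa2 transcript and more Igfbp4 and Igfbp3 transcript. Of the other substrate genes, Igfbp2 was lower and Igfbp5 was not called.

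Igfbp2, another PAPP-A substrate, went the other way. It had 21.5, 24.8 and 20.5 CPM in mutant day 3, 57.6, 49.6 and 50.6 CPM in control day 3, and 99.6, 91.8 and 88.6 CPM in control day 0. It fell in the mutant relative to control day 3, with a log2 fold change of -1.24 ± 0.08 (edgeR adjusted p = 2.34e-10), and in control day 3 relative to control day 0, with -0.83 ± 0.07 (adjusted p = 1.31e-09). Igfbp5, which both proteases cut, averaged 103 CPM in mutant day 3, 107 CPM in control day 3 and 91.1 CPM in control day 0. Its log2 fold change in the mutant was -0.05 ± 0.06 (edgeR adjusted p = 0.653). In control day 3 relative to control day 0 it was 0.23 ± 0.06 (adjusted p = 0.00203), which lost its call under scaling by total counts alone, at 0.11 (adjusted p = 0.12). Igfbp6, a carrier that prefers IGF-II, was higher in the mutant by 0.37 ± 0.07 on the log2 scale (edgeR adjusted p = 0.000394) and 2.84-fold higher in control day 3 than in control day 0. Igfbp7, a related protein of low IGF affinity, averaged 228 CPM in mutant day 3, 204 CPM in control day 3 and 144 CPM in control day 0, and its log2 fold change was 0.16 ± 0.06 in the mutant (edgeR adjusted p = 0.073) and 0.50 ± 0.06 with induction (adjusted p = 3.1e-07). Over the 6 tested binding proteins, 3 were called higher and 1 lower in the mutant relative to control day 3, with a median log2 fold change of 0.21. In control day 3 relative to control day 0, 5 were called higher and 1 lower, with a median of 0.75. The medians over all tested genes were 0.00 and 0.01. Igfbp1, a liver carrier, had 0 reads in all 9 libraries, and Igfals, which stabilises IGF complexes in blood, had too few reads to be tested.

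**Figure D4:**
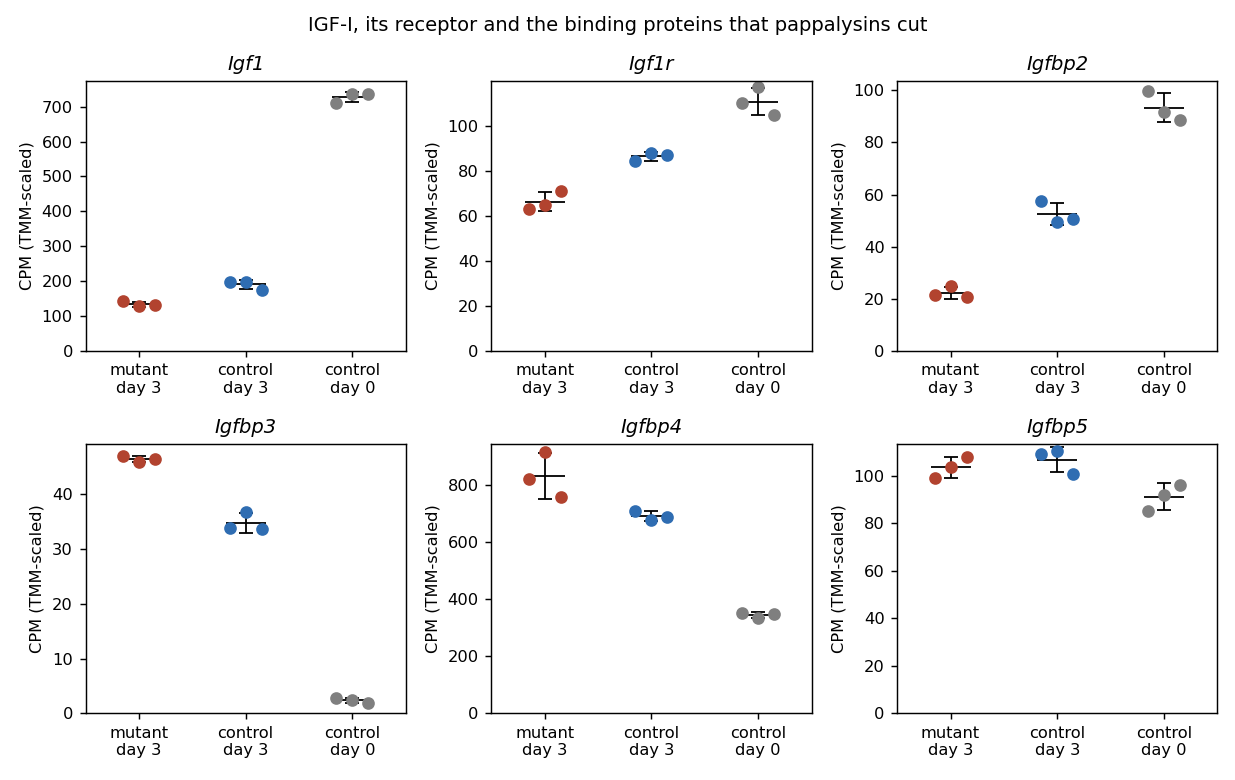
Levels in CPM scaled by TMM of Igf1, Igf1r, Igfbp2, Igfbp3, Igfbp4 and Igfbp5 in each library of mutant day 3, control day 3 and control day 0; points are libraries, and bars are the mean and SD of 3 libraries. Igf1 and Igfbp2 are lowest in mutant day 3 and highest in control day 0, while Igfbp3 and Igfbp4 are highest in mutant day 3 and lowest in control day 0.

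Igf1, the ligand that the proteases release, had 141, 127 and 132 CPM in mutant day 3, 198, 198 and 175 CPM in control day 3, and 710, 736 and 737 CPM in control day 0. Its groups did not overlap. It fell in the mutant, with a log2 fold change of -0.51 ± 0.06 relative to control day 3 (edgeR adjusted p = 1.06e-06), and in control day 3, with -1.93 ± 0.06 relative to control day 0 (adjusted p = 7.25e-18). Igf1r, the signalling receptor, averaged 66.3 CPM in mutant day 3, 86.4 CPM in control day 3 and 111 CPM in control day 0. It fell in both comparisons, with -0.38 ± 0.06 in the mutant (edgeR adjusted p = 0.000109) and -0.36 ± 0.06 with induction (adjusted p = 1.98e-05). Insr, the insulin receptor, fell in the mutant with -0.27 ± 0.07 (edgeR adjusted p = 0.00639) and rose with induction by 0.69 ± 0.07 (adjusted p = 8.03e-09). Igf2r, which clears IGF-II, had a log2 fold change of -0.16 ± 0.06 in the mutant (edgeR adjusted p = 0.0529, called at 0.0311 under scaling by total counts alone) and fell with induction, with -0.41 ± 0.06 (adjusted p = 1.4e-06). Igf2, the other ligand, had 17 reads in all over mutant day 3, 40 over control day 3 and 15 over control day 0, too few to be tested. Of the 4 tested ligand and receptor genes, 0 were called higher and 3 lower in the mutant, with a median log2 fold change of -0.33. With induction 1 was called higher and 3 lower, with a median of -0.38.

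Of 19 tested genes of IGF signalling inside the cell, 0 were called higher and 5 lower in the mutant relative to control day 3, with a median log2 fold change of -0.14. For this and every other list, the shares over all tested genes were 17.7% called in the mutant and 65.5% with induction. Irs1, the adaptor that couples IGF1R to PI3 kinase, fell with -0.86 ± 0.15 (edgeR adjusted p = 0.000283), and Grb10, an adaptor that restrains the receptor, with -0.50 ± 0.05 (adjusted p = 2.3e-07). In control day 3 relative to control day 0, 8 were called higher and 6 lower, with a median of 0.06. Under scaling by total counts alone these were 8 higher and 9 lower, with a median of -0.07. Grb14, another restraining adaptor, was 5.64-fold higher (edgeR adjusted p = 2.82e-16) and Irs1 0.524-fold (adjusted p = 1.24e-06). Of 3 tested genes for further partners and proteases of the system, Adam12, which also cuts IGF binding proteins, was called lower in the mutant, with -0.28 ± 0.07 (edgeR adjusted p = 0.0055). Htra1 and Adam9 were called higher with induction, Htra1 without a call under scaling by total counts alone. Prg2, whose product is a PAPP-A inhibitor in pregnancy serum, had 0 reads in mutant day 3, 0 reads in control day 3 and 3 reads in control day 0.

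Lists of genes that respond as Stc2 and Stc1 are known to respond were read beside them. Of 20 tested ATF4 response genes, 0 were called higher and 13 lower in the mutant relative to control day 3, with a median log2 fold change of -0.36. With induction 3 were called higher and 15 lower, with a median of -1.04. Trib3, a pseudokinase induced by ATF4, averaged 3.89 CPM in mutant day 3, 11.03 CPM in control day 3 and 42.6 CPM in control day 0. Aldh1l2, a mitochondrial folate enzyme, averaged 8.20 CPM in mutant day 3, 26.9 CPM in control day 3 and 136 CPM in control day 0. Asns, asparagine synthetase, averaged 45.6 CPM in mutant day 3, 72.9 CPM in control day 3 and 194 CPM in control day 0. Each of the 3 was called lower in both comparisons, while Slc7a11, the cystine transporter, was 4.87-fold higher with induction (edgeR adjusted p = 1.15e-15). Stc2 stood in the same order of groups as Trib3, Aldh1l2 and Asns, and so did Igf1, Igfbp2 and Vegfa, which are not on this list. The 3 ATF4 response genes were named for their small p, and Stc2 itself was not called in the mutant. A link of Stc2 to ATF4 in these cells was not tested.

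Of 18 tested hypoxia response genes, 1 was called higher and 6 lower in the mutant, with a median of -0.15, and 5 higher and 5 lower with induction, with a median of 0.02. Under scaling by total counts alone the split with induction was 4 higher and 8 lower, with a median of -0.11. Vegfa, the vascular growth factor, averaged 23.6 CPM in mutant day 3, 35.2 CPM in control day 3 and 107 CPM in control day 0, lower in both comparisons. Adm, adrenomedullin, was higher in both, at 204 CPM in mutant day 3, 110 CPM in control day 3 and 30.4 CPM in control day 0. Among calcium and phosphate genes, which stanniocalcins were first known to affect in fish, 4 were tested. In the mutant 0 were called higher and 2 lower, and with induction 1 was called higher and 3 lower. Slc20a1, a phosphate importer, fell with induction, with -1.38 ± 0.06 (edgeR adjusted p = 1.22e-14).

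The RNA of cell type markers also differed between groups. Of 7 tested osteoblast markers, 0 were called higher and 7 lower in the mutant relative to control day 3, and 5 higher and 0 lower with induction. The summed level of all 11 listed was 10510 to 12387 CPM in mutant day 3, 17958 to 19501 CPM in control day 3 and 14924 to 16383 CPM in control day 0. Most of it came from Col1a1, Col1a2 and Spp1. Bglap, the osteocalcin gene, had 0 reads in mutant day 3, as had the osteocyte gene Dmp1 in control day 3. In each group 4 of the 11 averaged under 1 CPM, and nothing is read from those 0 reads. Of 12 periosteal progenitor markers, 3 were called higher and 4 lower in the mutant, and 7 higher and 2 lower with induction. Macrophage markers were abundant in every group, with sums of 19857 to 21831 CPM in mutant day 3, 18895 to 20802 CPM in control day 3 and 13393 to 13867 CPM in control day 0. Of those 12, 6 were called higher and 0 lower in the mutant, and 9 higher and 3 lower with induction, and none was at 0 reads. Under scaling by total counts alone Adgre1, Mrc1 and Tyrobp of the macrophage list and Cxcl12 of the periosteal list lost their higher call in the mutant. With induction Col1a2 of the osteoblast list and Cd14 of the macrophage list lost theirs, and Eng of the periosteal list was called lower. The part of these marker differences in the levels of the pappalysins and stanniocalcins was not tested.

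Other lists were smaller. Smooth muscle and pericyte markers summed to 536 to 623 CPM in mutant day 3, 791 to 899 CPM in control day 3 and 2733 to 2814 CPM in control day 0, with 6 of 9 called lower in the mutant and 2 higher and 7 lower with induction. Chondrocyte markers summed to 167 to 206 CPM in mutant day 3, 203 to 211 CPM in control day 3 and 55.4 to 57.5 CPM in control day 0, with 3 of 6 lower in the mutant and 3 higher and 2 lower with induction. Comp made up most of their day 3 sums. It averaged 152 CPM in mutant day 3, 159 CPM in control day 3 and 7.99 CPM in control day 0. Col2a1, a cartilage collagen, averaged 0.716 CPM in mutant day 3, 6.29 CPM in control day 3 and 29.8 CPM in control day 0. Osteoclast markers summed to 163 to 165 CPM in mutant day 3, 136 to 147 CPM in control day 3 and 99.3 to 115 CPM in control day 0, with 1 of 5 higher in the mutant and 1 higher and 4 lower with induction. Most of the day 3 sums was Acp5, at 119 CPM in mutant day 3, 94.1 CPM in control day 3 and 5.92 CPM in control day 0. Atp6v0d2, Itgb3, Mmp9 and Nfatc1 were lower with induction. Skeletal muscle markers summed to 54.1 to 61.7 CPM in mutant day 3, 34.8 to 41.7 CPM in control day 3 and 23.5 to 28.3 CPM in control day 0, with 4 of 5 higher in the mutant and 2 higher with induction. Endothelial markers summed to 9.37 to 9.89 CPM in mutant day 3, 5.96 to 6.92 CPM in control day 3 and 10.9 to 15.3 CPM in control day 0, with 2 of 6 higher in the mutant and 1 higher and 2 lower with induction, where the higher call, of Kdr, was lost under scaling by total counts alone. Much of their day 0 sum was Vwf, at 0.369 CPM in mutant day 3, 0.522 CPM in control day 3 and 8.65 CPM in control day 0. Cdh5, Emcn and Pecam1 averaged highest in mutant day 3, and Kdr in control day 3. Epithelial markers stayed under 1 CPM in sum, with 5 of 6 at 0 reads in mutant day 3, 5 in control day 3 and 4 in control day 0.

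The 5 genes nearest to each of the 4 in profile were found by Pearson's correlation of log2 CPM over the 9 libraries, among tested genes of at least 5 CPM. Genes with predicted names (Gm or Rik) or named by identifier were left out. These correlations follow mostly from the 3 group levels that all libraries share. For Pappa2 they were Fzd8 (r = 0.988), a Wnt receptor, Mmp2 (r = 0.987), a gelatinase, Col11a1 (r = 0.986), a fibrillar collagen, Olfml2b (r = 0.985) and the imprinted gene Peg3 (r = 0.983). Mmp2 averaged 222 CPM in mutant day 3, 418 CPM in control day 3 and 229 CPM in control day 0, and Col11a1 averaged 301 CPM in mutant day 3, 676 CPM in control day 3 and 361 CPM in control day 0. Like Pappa2, both were high in control day 3 alone.

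For Pappa the nearest were Rest, a repressor of neuronal genes (r = 0.984), Mbtd1 (r = 0.979), Rasa2 (r = 0.973), Utrn (r = 0.969), which encodes utrophin, and Blzf1 (r = 0.965). Rest averaged 46.9 CPM in mutant day 3, 56.0 CPM in control day 3 and 60.8 CPM in control day 0, a smaller difference than in Pappa. For Stc2 the nearest were Frmd6 (r = 0.995), Zgrf1 (r = 0.992), Cpeb2 (r = 0.991), Ercc6 (r = 0.991) and Dpy19l1 (r = 0.991). Frmd6 averaged 73.6 CPM in mutant day 3, 88.7 CPM in control day 3 and 143 CPM in control day 0. For Stc1, whose day 3 levels rest on 2 to 14 reads a library, they were Klc4 (r = 0.972), Pwwp2b (r = 0.968), Pcyox1l (r = 0.965), Pih1d1 (r = 0.963) and Jmjd6 (r = 0.961).

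**Figure D5:**
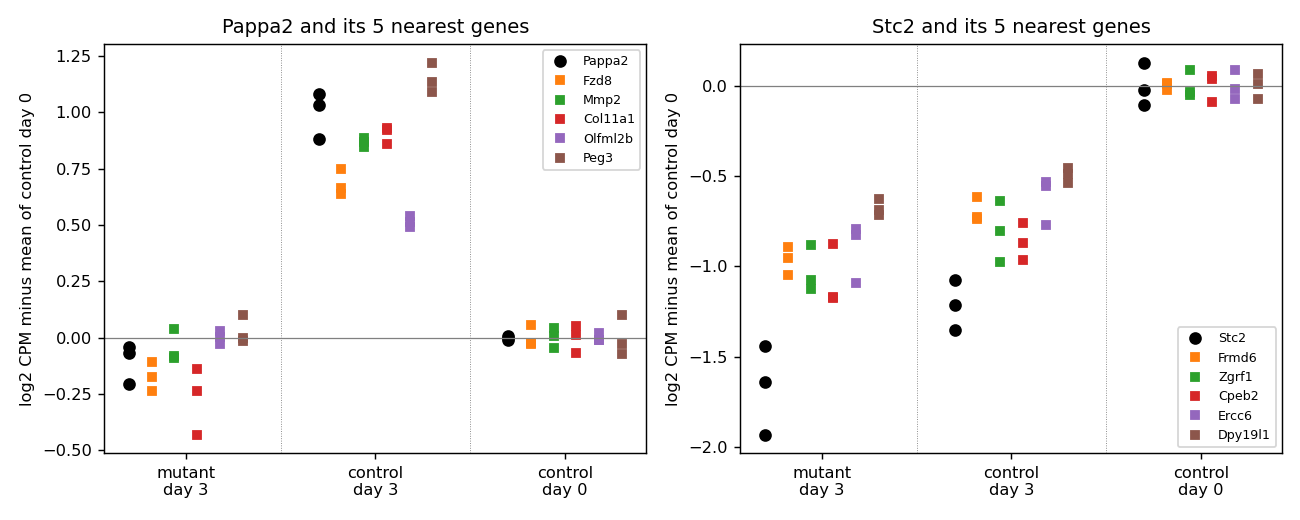
Log2 CPM of Pappa2 (left) and Stc2 (right) and of the 5 genes nearest to each in profile, less the mean of control day 0, in mutant day 3, control day 3 and control day 0; each point is a library. Pappa2 and its nearest genes stand high in control day 3 alone, while Stc2 and its nearest genes lie lower in both day 3 groups, Stc2 farthest.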

How the data were processed

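The submitters' processing notes list, without roles, HTSeq, HISAT2 and cutadapt, and build GRCm39. Versions, annotation release and strand setting were not given in the sources used here. TRIzol RNA went into NEBNext Ultra II RNA libraries, per the labels. The authors deposited whole read counts per gene, not normalized, and FPKM. The deposited FPKM equalled the count divided by gene length and by the library's summed count, within 0.1%, for genes of at least 100 reads, and was used for levels between genes. The table held 21958 genes, 23 identifiers shared a symbol with another, and 1 emptied line was left out. No other gene of the table overlapped Pappa, Pappa2, Stc1 or Stc2.

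Counts were filtered with filterByExpr (minimum count 10), scaled with TMM and fitted in edgeR 4.0.16 (R 4.3.3) by quasi-likelihood with 1 mean per group over 9 libraries. Each standard error is the log2 fold change divided by the square root of F. A floor of 3 counts was 0.146 to 0.186 CPM. DESeq2 1.42.0, other scalings, filters, a fit of 2 groups, a block and leaving out each library were alternatives. The 4 genes and all lists were chosen with earlier results of these data known. Named were the 4 genes, Plagl1, 4 Y-linked genes, all IGF axis and partner genes with reads, up to 4 genes of each further list by smallest p per comparison, and the 5 nearest genes of each of the 4. Some that the rule names are counted only.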

Additional observations from a re-analysis of the deposited data

How the results depend on the processing

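Of 269 values under alternatives, 261 were rated the same as the main result, and none reversed. A fold change had to keep its direction and side of the threshold. A ratio had to move by less than the spread between replicates, and a count of called genes to stay within a set fold of the main count. Leaving out 1 of 3 libraries cannot move a mean ratio that far, so those ratings were fixed in advance. They are among the 261 and show nothing about stability. Scaling by total counts alone, which moved the median log2 fold change of all tested genes to -0.11 in control day 3 against control day 0 and -0.14 in mutant day 3 against control day 0, brought 2 further calls. Pappa then stood at -0.24 ± 0.09 in control day 3 against control day 0, and Pappa2 at -0.25 ± 0.06 in mutant day 3 against control day 0. Without length scaling the ratio of stanniocalcins to pappalysins was 0.0283 in mutant day 3, 0.0189 in control day 3 and 0.0702 in control day 0, that of Stc2 to Stc1 was 5.55 in control day 0, and that of Pappa2 to Pappa, added after the data were seen, was 2.24 in control day 3. Leaving out 1 library at a time gave 1479 to 2948 genes called between mutant day 3 and control day 3, against 2301 with all libraries, the lowest without control day 3 replicate 2. In the same comparison Pappa ranged over -0.61 to -0.36, Pappa2 over -1.16 to -1.05, Stc2 over -0.57 to -0.33 and Stc1 over 0.26 to 1.03. The fit of these 2 groups alone filtered out Stc1 and gave no value for it.

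Same-numbered libraries did not deviate together, with correlations of -0.077 to 0.028, and 0, 3 and 0 of 6 libraries in the 3 comparisons correlated best with their own number. With the replicate number as a block, 2050 genes were called in mutant day 3 against control day 3, 8390 in control day 3 against control day 0 and 8742 in mutant day 3 against control day 0. Pappa2 stood at -1.10 and Pappa at -0.46 in the first of these, and no call of the 4 genes changed. Depth limits Stc1 most.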
